A study of Mus musculus with 16 samples.

Results

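The genes described here are 7 interferon-induced GTPases of mouse skeletal muscle: Iigp1, Tgtp1, Igtp, Irgm1, Irgm2, Gbp2 and Gbp3. They were taken by gene symbol from the 17097 genes that the arrays measured through a probe set with 1 symbol, and all 7 were found. They were chosen by their signal in the muscle of old Mfn2 knockout mice, which was high there. Their values in that group, against young knockout or old control muscle, are therefore given as a description with no test.

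Interferon-induced GTPases are proteins that cells make in quantity when interferons, above all interferon gamma, bind their receptors. Binding activates JAK kinases and STAT transcription factors, which switch on genes through short promoter sequences, the gamma-activated sequence (GAS) and the interferon-stimulated response element (ISRE). The immunity-related GTPases (IRG) and the larger guanylate-binding proteins (GBP) load onto the membrane around intracellular microbes and damage it. Within the IRG family, Iigp1 and Tgtp1 are effectors of this attack, while Igtp, Irgm1 and Irgm2 are regulators that sit on the cell's own membranes and hold the effectors inactive there.

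RNA came from the quadriceps of 16 mice, 1 array per mouse and 4 mice per group. The groups were control mice at 6 months (young control), Mfn2 KO mice at 6 months (young KO), control mice at 22 months (old control) and Mfn2 KO mice at 22 months (old KO). Mfn2 encodes mitofusin 2, which fuses mitochondria, and the cells that lost it and the way it was removed are not given in the sources used here. All mice ate standard chow, and values are log2 signals made with the RMA procedure, so that a difference of 1 is a doubling.

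The Mfn2 transcript stood at 8.66, 9.05, 8.03 and 9.45 in young control, 8.41, 8.49, 8.38 and 8.54 in young KO, 8.52, 8.67, 8.34 and 9.18 in old control and 8.31, 8.01, 6.32 and 8.32 in old KO replicates 1 to 4. All old KO values lay below all old control values, by a narrow step except in replicate 3, and the young groups overlapped. Where the probe set lies relative to the deleted part of the gene is not given in the sources used here. The 12 muscle fibre markers, such as the actin Acta1 (12.53 to 12.70) and the creatine kinase Ckm (12.04 to 12.38), were bright in every array. Arrays with the same replicate number deviated together, whatever their group (24 pairs, r from 0.289 to 0.780), and what the number stands for is not given in the sources used here. The labels also name families: old KO replicates 1, 2 and 3 and old control replicate 1 are of family A, and old KO replicate 4 is of a family labelled Other. Old KO replicates 1 and 3 stood apart from the other arrays in the GTPase genes, so that the differences of old KO muscle are also given without them.

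The promoters of the members are shown because all those with an entry held a match to the ISRE. The choice by signal did not use promoter sequence. The class is named for its induction by interferon, which acts through the GAS and the ISRE, so that matches were likely beforehand. RefSeq promoter windows (GRCm38.p6, 250 bases before to 50 after a transcription start) were found for 6 of the 7 members, and Iigp1 had no entry. Each stretch below lies before the start and is written 5′ to 3′ on the strand of the gene. Capitals mark matches to an ISRE core, GAAANNGAAA or its reverse complement TTTCNNTTTC, and to a GAS core, TTCNNNGAA, which reads alike on both strands.
Tgtp1 (chr11:48992284-48992353, minus strand): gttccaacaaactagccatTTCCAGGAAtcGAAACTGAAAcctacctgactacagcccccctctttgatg
Igtp (chr11:58199492-58199555, plus strand): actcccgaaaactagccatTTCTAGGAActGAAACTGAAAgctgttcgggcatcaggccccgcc
Irgm2 (chr11:58214883-58214952, plus strand): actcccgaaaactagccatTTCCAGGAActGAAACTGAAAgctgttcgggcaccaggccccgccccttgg
Irgm1 (chr11:48871421-48871480, minus strand): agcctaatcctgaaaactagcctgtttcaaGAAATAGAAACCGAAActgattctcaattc
Gbp2 (chr3:142620574-142620643, plus strand): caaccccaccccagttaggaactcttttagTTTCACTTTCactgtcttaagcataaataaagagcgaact
Gbp3 (chr3:142559969-142560043, plus strand): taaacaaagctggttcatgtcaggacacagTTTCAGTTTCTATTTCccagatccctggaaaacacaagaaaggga

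An ISRE core was present in 6 of 6 members with a window, against 3.99% of all genes with a window and 3.44% of all 32851 windows of the same length. It was also present in 6 of 9 other IRG and GBP genes and in 10 of 19 type I interferon-stimulated genes with a window. In the IRG genes it lay on the strand of the gene, and in Gbp2 and Gbp3 on the opposite strand. Irgm1 and Gbp3 each held a pair of overlapping matches, and the other Gbp3 window held none. A GAS core was present in Tgtp1, Igtp and Irgm2, against 9.55% of all genes and 8.30% of all windows, and in each of these 3 genes it ended 2 bases before the ISRE core. Both motifs together occurred in 0.454% of all windows. The promoters are not independent of each other: those of Igtp and Irgm2, whose starts lie 15.4 kb apart, share an unbroken run of 61 bases, and those of Irgm2 and Tgtp1 one of 20. The Gbp2 and Gbp3 starts lie 60.6 kb apart, and their windows share at most 9 bases in a row. A match describes the letters of the window and not the binding of a factor.

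**Figure D1:**
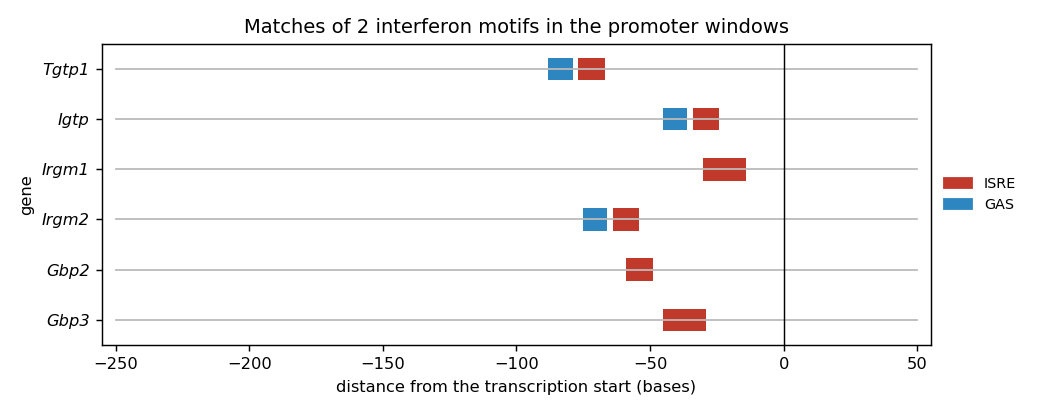
Positions of ISRE and GAS core matches (coloured blocks) along the promoter windows of 6 members, as distance in bases from the transcription start (vertical line at 0). All ISRE matches lie between positions -77 and -15, and in Tgtp1, Igtp and Irgm2 a GAS match lies 2 bases upstream of the ISRE.

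The effector Iigp1, which coats and breaks up the vacuoles of intracellular parasites, had the widest difference of the 7 on the log2 scale. It stood at 8.26, 5.87, 9.27 and 5.36 in old KO replicates 1 to 4, and at 4.92, 4.27, 4.61 and 4.61 in old control. It was 5.44, 4.81, 4.92 and 3.66 in young control and 4.48, 4.19, 4.59 and 6.28 in young KO. Every old KO value lay above every old control value, but young KO replicate 4 lay above old KO replicates 2 and 4. The group mean was 7.19 ± 1.88 in old KO and 4.61 ± 0.27 in old control (SD, n = 4 each), a mean 6.00-fold higher, and 4.88 ± 0.95 in young KO (SD, n = 4). Without old KO replicates 1 and 3 the difference from old control was 1.01 in place of 2.58.

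Tgtp1, the other effector, stood at 7.58, 4.70, 6.22 and 4.18 in old KO and at 4.14, 3.91, 4.09 and 4.09 in old control. It was 4.76, 4.15, 4.03 and 3.95 in young control and 4.14, 3.97, 3.89 and 4.15 in young KO. Old KO replicate 4 was hardly above old control and young KO and lay inside the range of young control. Young control replicate 1 lay above old KO replicates 2 and 4. The old KO mean of 5.67 ± 1.54 was 3.06-fold that of old control (4.06 ± 0.10; SD, n = 4 each), and the difference of 1.61 became 0.38 without replicates 1 and 3. Tgtp1 has a near-identical copy, Tgtp2, and the probe set may read both.

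The regulator Igtp, also called Irgm3, stood at 7.92, 6.79, 9.35 and 6.62 in old KO muscle and at 6.67, 6.68, 5.88 and 6.16 in old control. The young arrays held 6.40, 6.37, 5.53 and 5.48 in control and 5.90, 6.02, 5.88 and 5.88 in KO. All old KO values exceeded all young KO values, while old KO replicate 4 lay within the old control range. The mean was 7.67 ± 1.26 in old KO, 6.34 ± 0.40 in old control and 5.92 ± 0.07 in young KO (SD, n = 4 each). That is 2.51-fold the old control and 3.37-fold the young KO mean. Without old KO replicates 1 and 3 the differences were 0.36 in place of 1.33 and 0.79 in place of 1.75.

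Irgm2 stood at 5.97, 5.25, 7.42 and 5.35 in old KO, 5.53, 5.48, 5.16 and 4.45 in old control, 5.10, 5.01, 4.92 and 4.65 in young control and 4.93, 4.89, 4.83 and 4.91 in young KO. Old KO replicates 2 and 4 fell inside the range of old control, and all old KO values exceeded the young KO values. Its difference from old control was 0.84, and 0.15 without replicates 1 and 3. Irgm1, a regulator also known for a part in autophagy, differed least among the IRG members. It stood at 5.16, 4.53, 5.49 and 4.32 in old KO against 4.45, 4.47, 4.44 and 4.52 in old control, 4.72, 4.59, 4.28 and 4.43 in young control and 4.63, 4.68, 4.39 and 4.27 in young KO. Its old KO mean was 1.32-fold the old control mean, and without replicates 1 and 3 the sign turned, to -0.05.

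The guanylate-binding proteins were highest in old KO replicate 1. Gbp2 stood at 6.72, 4.46, 4.87 and 4.42 in old KO, against 4.50, 4.57, 4.48 and 4.22 in old control, 4.71, 4.66, 4.41 and 4.68 in young control and 4.50, 4.54, 4.23 and 4.54 in young KO. Gbp3 stood at 4.13, 2.81, 3.01 and 2.93 in old KO, against 2.75, 2.80, 2.88 and 2.83 in old control, 2.91, 2.92, 2.94 and 2.83 in young control and 2.75, 2.77, 2.88 and 2.87 in young KO. For both genes old KO replicate 1 was far above all other arrays and old KO replicate 3 only a little. Gbp3 was dim outside that array. Without old KO replicates 1 and 3 the difference from old control was 0.06 for Gbp3 and -0.0039 for Gbp2.

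**Figure D2:**
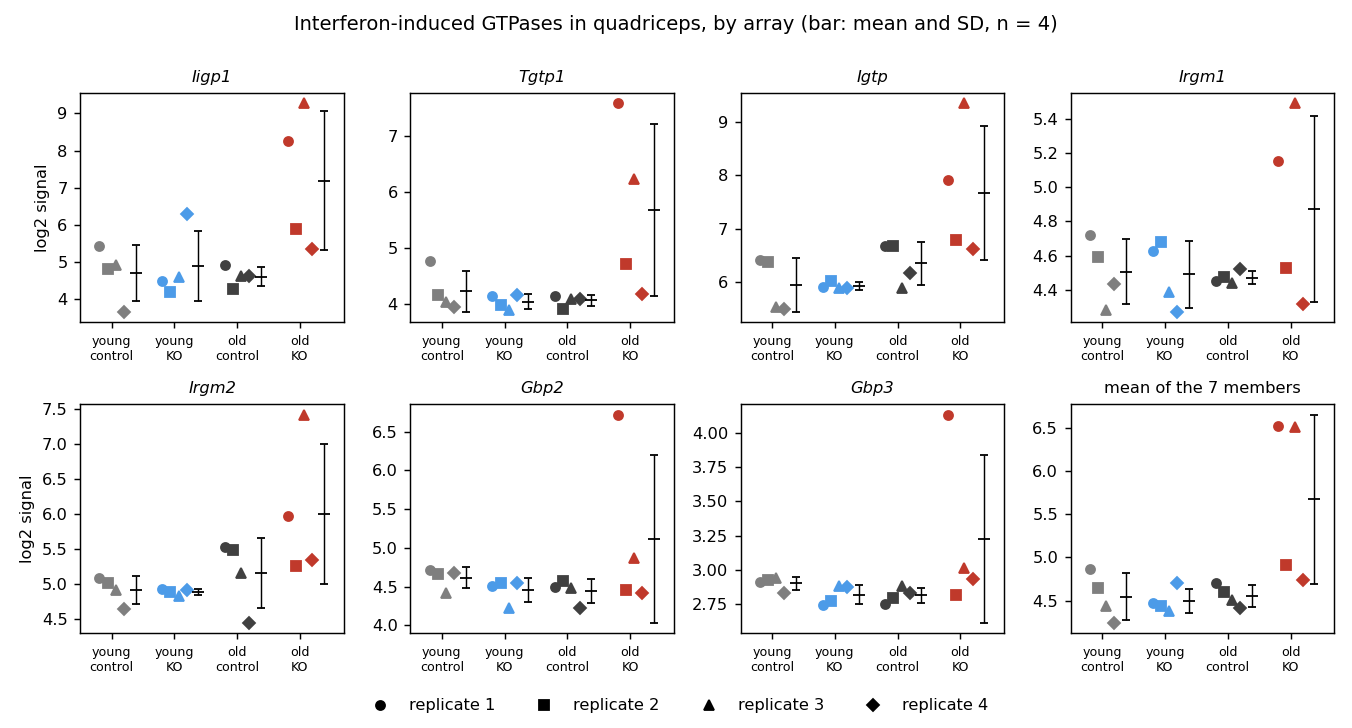
Log2 signal of each member and of their mean (y axis) in the 4 groups (x axis); symbols mark the replicate number and bars give the mean and SD of 4 arrays. Old KO replicates 1 and 3 stand above the other arrays in each panel, and old KO replicates 2 and 4 lie near or within the other groups.

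Single animals were compared with the 12 arrays of the other groups. Old KO replicate 1 lay above all 12 in 7 of 7 members (7.21% of all genes did so in that array) and replicate 3 also in 7 of 7 (10.3% of all genes). Old KO replicate 2 did so in 1 of 7, Igtp (8.91% of all genes), and replicate 4 in 0 of 7 (3.64%). Taken from the median of the 12 other arrays, Iigp1 was 12.5-fold higher in replicate 1 and 25.2-fold higher in replicate 3. Tgtp1 was 11.2-fold and 4.38-fold higher, Gbp2 4.59-fold and 1.27-fold, and Gbp3 2.42-fold and 1.12-fold, each larger in replicate 1. Igtp was 3.89-fold and 10.5-fold higher and Irgm2 2.07-fold and 5.63-fold, both larger in replicate 3. Irgm1 was 1.62-fold and 2.04-fold higher. These are folds of the deposited signal, in which dim values such as the Tgtp1 and Gbp3 medians are compressed, so that they may understate the change in transcript. Replicate 1 led in the GBP members and Tgtp1, and replicate 3 in Iigp1 and the regulators. The mean of the 7 members was all but equal in these muscles, at 6.53 and 6.52, against 4.92 and 4.74 in replicates 2 and 4 and 4.24 to 4.86 in the 12 other arrays.

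**Figure D3:**
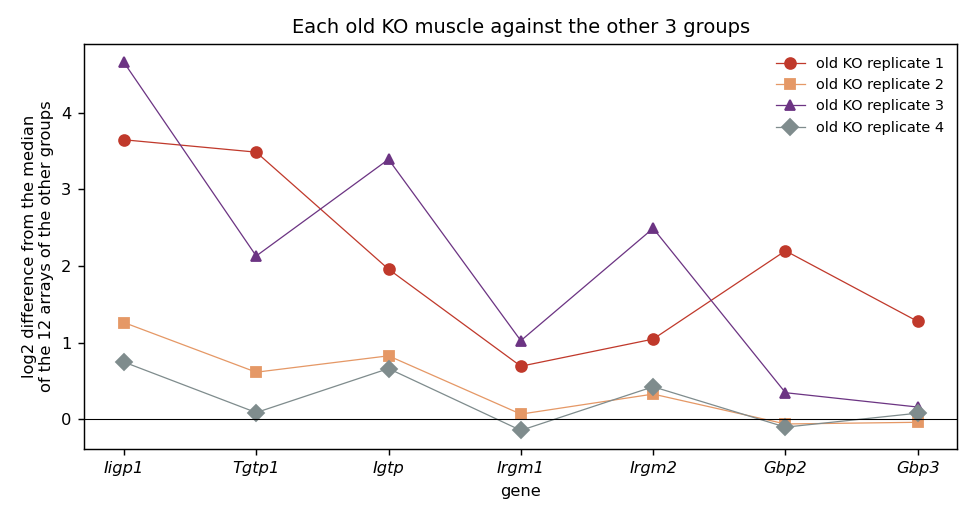
Log2 difference of each old KO array from the median of the 12 arrays of the other groups (y axis) for each member (x axis); lines join the values of 1 animal and the horizontal line marks 0. Replicate 3 is highest for Iigp1, Igtp, Irgm1 and Irgm2, replicate 1 for Tgtp1, Gbp2 and Gbp3.

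Arrays of the same replicate number were also compared, and numbers 1 and 3 gave the largest differences in all members but Irgm2. Old KO minus old control was 3.33, 1.60, 4.66 and 0.75 for Iigp1 in numbers 1 to 4, positive in 4 of 4. It was 1.25, 0.11, 3.48 and 0.47 for Igtp and 2.22, -0.11, 0.38 and 0.20 for Gbp2. For Irgm2 it was 0.45, -0.23, 2.26 and 0.90, larger in number 4 than in number 1. In family A alone, old KO replicates 1, 2 and 3 stood at 8.26, 5.87 and 9.27 in Iigp1 and the 1 old control mouse at 4.92.

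As group means, 7 of 7 members were higher in old KO than in young KO muscle (47.1% of all genes were) and than in old control muscle (48.4%), which their choice fixed. The median difference was 1.11 against young KO and 0.84 against old control, beside -0.0083 and -0.0041 over all genes. Groups did not overlap in 3 of 7 members against young KO, namely Tgtp1, Igtp and Irgm2 (0.924% of all genes), and in 2 of 7 against old control, namely Iigp1 and Tgtp1 (0.433%). The mean over the members differed by 1.18 from young KO and 1.12 from old control muscle, and by 0.33 and 0.27 without old KO replicates 1 and 3. With family and the replicate number in the fit the difference from young KO was 0.55. Families A and B held only mice of 22 months, and families C and D only mice of 6 months. Only mice labelled Other were of both ages, so that this fit cannot cleanly separate age from family. In whole muscle, more cells of a type and more transcript per cell cannot be told apart.

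The members were also compared between the groups that hold no old KO mouse, with limma across all genes. Young KO and old control muscle had served as the background to the choice, so that a low value there would itself favour a gene's choice. The fit takes 1 spread per gene from all 16 arrays, old KO included, and the members' wide spread in old KO makes these tests insensitive. Between young KO and young control muscle, 0 of 7 members were called at an adjusted p under 0.05, as were 0% of all genes, and 0 of 7 had an unadjusted p under 0.05 (1.7% of all genes), also with the replicate number as a block (9.43% of all genes). The differences ran from -0.18 (Tgtp1, SE 0.50) to 0.18 (Iigp1, SE 0.70), with a median of -0.0273 and 6 of 7 below 0. Between old and young control muscle, again 0 of 7 were called (0% of all genes; 0.0468% with the replicate number as a block), and 0 of 7 had an unadjusted p under 0.05 (2.12% of all genes), also with the block (9.64% of all genes). Igtp differed by 0.40 (SE 0.45; 95% interval -0.56 to 1.36) and Irgm2 by 0.24 (SE 0.36; 95% interval -0.53 to 1.01). The other 5 lay between -0.17 and -0.0349.

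With only the arrays of the groups compared in the fit, the SE was smaller, at 0.065 in place of 0.199 for Gbp3 and 0.17 in place of 0.50 for Tgtp1 between young KO and young control. In those fits 0 of 7 members had an unadjusted limma p under 0.05 between young KO and young control (1.64% of all genes) or between old and young control (1.73% of all genes). The 95% intervals for young KO against young control then ran from -0.23 to 0.064 for Gbp3, from -0.57 to 0.20 for Tgtp1 and from -0.93 to 1.29 for Iigp1. In Iigp1, young KO replicate 4 at 6.28 lay apart from its group. Without it the Iigp1 difference was -0.29 in place of 0.18.

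A dimmer probe set was present for Iigp1 and for Gbp2. In the other Iigp1 probe set old KO muscle was 2.09 above old control and 1.85 above young KO, against 2.58 and 2.31 in the brighter one, and it also placed young KO replicate 4 highest of the 12 other arrays (5.22). The other Gbp2 probe set, of a kind that can match several transcripts, stood at 6.48, 4.52, 5.32 and 4.37 in old KO replicates 1 to 4, again with replicates 1 and 3 highest.

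The remaining GTPases of these families were set beside the members. Of 21 listed, 8 were measured under 1 symbol, and 0 of 8 were called between old and young KO (0.0175% of all genes) or between old KO and old control (0%). Gbp7 stood at 8.97, 7.17, 8.67 and 6.93 in old KO replicates 1 to 4, with 6.39 to 7.74 in the 12 other arrays. Its old KO mean was 1.07 above old control (SE 0.40, limma unadjusted p = 0.0163, adjusted p = 0.999999), and 0.18 above it without replicates 1 and 3. Ifi47, another IRG gene, stood at 5.86, 4.37, 5.41 and 4.58, with 3.88 to 4.75 in the 12 other arrays, and was 0.998 above old control (SE 0.26, limma unadjusted p = 0.0016, adjusted p = 0.999999), and 0.42 above it without replicates 1 and 3. In both genes old KO replicates 1 and 3 were the highest of all arrays, as in the members. Gbp10 was above all 12 other arrays in replicate 1 only, at 8.64. Gbp4 was below its highest other array in all 4 old KO muscles (5.66 to 6.38, against 5.68 to 6.67), and Irgc1 and Irgq were likewise above all 12 in no old KO muscle. Gbp2b was highest in old KO replicate 3, at 4.72, and near its lowest in replicate 1, at 3.22. Gbp8, dim throughout, was highest in replicate 1 at 3.59.

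Upstream of the GTPases, interferon gamma itself (Ifng) was dim in every array, at 4.04, 3.94, 4.21 and 4.25 in old KO muscle and 3.87 to 4.38 in the 12 others. Its old KO mean was 0.03 above old control (SE 0.12, limma unadjusted p = 0.827). Of 15 measured genes of interferon gamma signalling, 0 were called in any of the 5 limma comparisons. In old KO against old control muscle 12 of 15 were higher (48.4% of all genes), with a median of 0.04. Stat2, a partner in the transcription factor that binds the ISRE, stood at 6.78, 5.73, 5.47 and 5.20 in old KO replicates 1 to 4, with 5.10 to 5.72 in the others, and stood far above them in replicate 1 alone. Irf9, which joins the STAT proteins on the ISRE, stood at 6.86, 5.97, 6.31 and 5.26, with 4.79 to 6.12 in the others. Irf1, a transcription factor that interferon gamma induces, stood at 6.88, 6.32, 6.41 and 5.79, with 5.81 to 6.45 in the others. The receptor genes Ifngr1 (6.82 to 7.71) and Ifngr2 (7.25 to 7.92) stayed within the range of the other groups in all 4 old KO muscles. Jak2 differed by -0.38 and Ifngr2 by -0.33 between old and young KO. Between old and young control they differed by -0.42 and -0.34. Irf8 was 0.33 higher in old than in young KO, with no overlap (0.924% of all genes), and 0.19 higher in old than in young control.

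Other targets of interferon gamma were higher in old KO than in old control muscle in 26 of 28 genes (48.4% of all genes), with a median of 0.34. Without old KO replicates 1 and 3 this was 19 of 28, with a median of 0.0911. They were above all 12 other arrays in 13 of 28 genes in old KO replicate 1 (7.21% of all genes) and 16 of 28 in replicate 3 (10.3%). In replicates 2 and 4 it was 2 of 28 and 3 of 28 (8.91% and 3.64% of all genes). Nlrc5, the activator of class I antigen presentation genes, stood at 5.36, 4.28, 5.58 and 4.77, with 3.64 to 4.69 in the other 12 arrays. Its old KO mean was 0.96 above young KO (SE 0.27, limma adjusted p = 0.99994; adjusted p = 0.0584 with the replicate number as a block), and 0.49 above it without replicates 1 and 3. Psmb9, a subunit of the immunoproteasome, stood at 6.87, 5.93, 6.42 and 5.75, with 5.39 to 5.90 in the others. The class II genes H2-Aa and H2-Ab1 were highest in replicate 3, at 10.23 and 10.35, with 8.32 to 9.77 and 8.03 to 9.86 in the others. In both genes old control replicate 1 lay above old KO replicates 1, 2 and 4. The old control means were 0.45 and 0.53 above young control (SE 0.25 and 0.34).

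Type I interferon-stimulated genes set old KO replicate 1 apart. Their mean was 5.70, 4.99, 4.98 and 4.91 in old KO replicates 1 to 4, and 4.78 to 4.999 in the 12 other arrays. Of 22 measured, 15 were above all 12 other arrays in old KO replicate 1 (7.21% of all genes) but 5 in replicate 3 (10.3%). It was 2 each in replicates 2 and 4 (8.91% and 3.64% of all genes). Rsad2, the antiviral protein viperin, stood at 8.78, 6.59, 6.21 and 7.01, with 4.82 to 6.71 in the others. Ifi27l2a had another order, at 8.26, 7.78, 5.55 and 7.57, with 4.90 to 8.28 in the others. Its mean was 7.29 in old KO, 6.74 in old control, 5.66 in young KO and 7.44 in young control. Ifit3 stood at 7.48, 6.35, 6.70 and 6.13, with 5.62 to 6.40 in the others, and Usp18 at 4.76, 4.18, 4.16 and 3.86, with 3.55 to 4.29. In old KO against old control muscle 22 of 22 were higher (48.4% of all genes), with a median of 0.21, and 12 of 22 without replicates 1 and 3.

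Over these 4 lists together, 73 genes, limma called 0 in each of the 5 comparisons, also with the replicate number as a block (0.0234% of all genes between old and young KO). At an unadjusted p under 0.05, 16 of 73 were higher in old than in young KO (1.34% of all genes) and 10 of 73 higher in old KO than in old control (0.602%). With the block these counts were 20 (4.36% of all genes) and 20 (3.21%). Without old KO replicates 1 and 3, and without the block, they were 3 and 2. Between young KO and young control 0 of 73 were higher and 1 lower at that level (1.7% of all genes in either direction), and between old and young control 0 in either direction (2.12%). With the block they were 3 higher and 1 lower (9.43% of all genes), and 2 higher and 3 lower (9.64%). Autophagy proteins that place IRG and GBP proteins on membranes lay above all 12 other arrays in 1, 3, 1 and 0 of 11 genes in old KO replicates 1 to 4. The shares over all genes were 7.21%, 8.91%, 10.3% and 3.64%. Of the autophagy genes, 0 of 11 were called in any of the 5 comparisons.

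**Figure D4:**
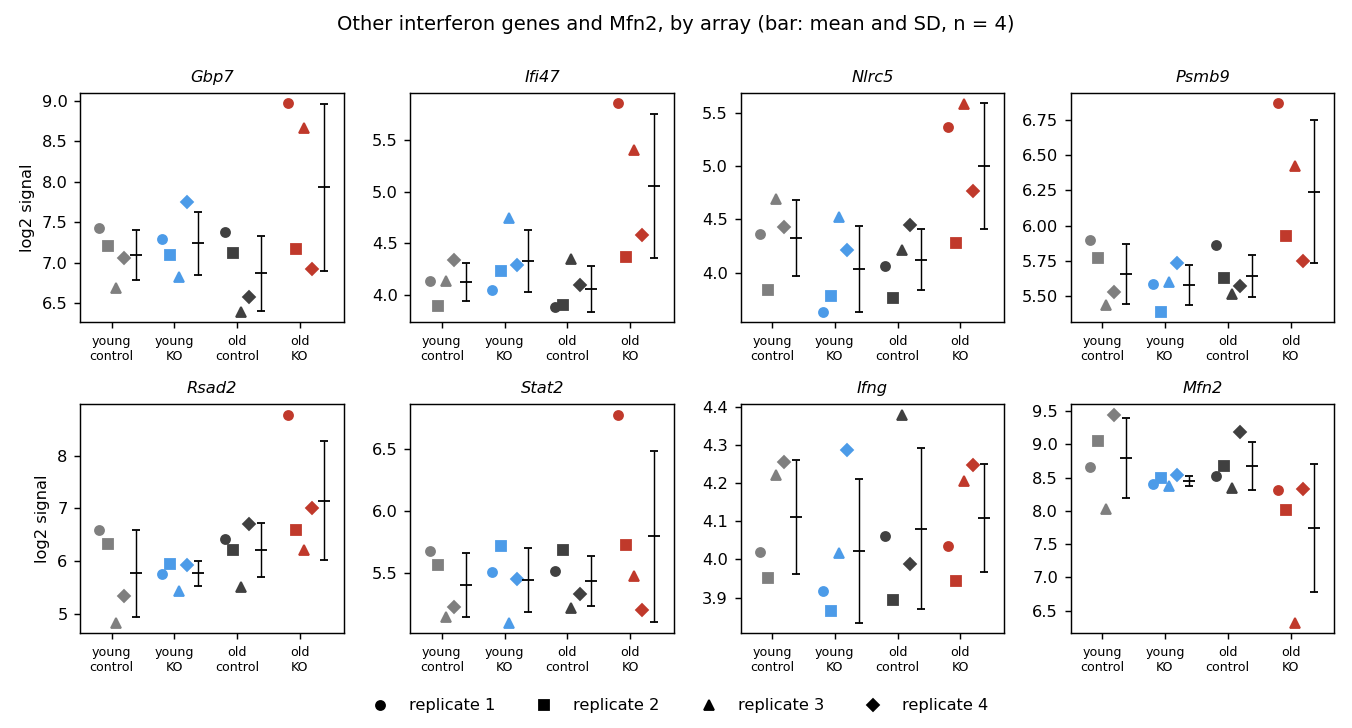
Log2 signal (y axis) of 7 other interferon genes and Mfn2 in the 4 groups (x axis); symbols mark the replicate number and bars give the mean and SD of 4 arrays. Gbp7, Ifi47, Nlrc5 and Psmb9 are highest in old KO replicates 1 and 3, Rsad2 and Stat2 in replicate 1, and Ifng in none of the old KO arrays.

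Markers of other cells were read in the same arrays. Macrophage markers were higher in old than in young muscle in 12 of 13 genes in control mice (median 0.61, 46.9% of all genes). In KO mice it was 12 of 13 (median 0.42, 47.1% of all genes). Between old KO and old control 8 of 13 were higher (median 0.08, 48.4% of all genes). Their summed linear signal ran from 999.9 to 1624 in old KO and from 861.5 to 1718 in old control muscle, while the members' sum ran from 247.4 to 1598 and from 183.4 to 247.0. The part of macrophages in the members' values was not tested.

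T cell markers differed by a median of 0.05 between old KO and old control (5 of 9 higher), with sums of 192.4 to 252.5 and 187.2 to 252.7. Of these, 4 of 9 were above all 12 other arrays in replicate 3 (10.3% of all genes) and 0 of 9 in replicate 1 (7.21%). The mean of the T cell list was highest in replicate 3 of every group, at 4.58 in young control, 4.60 in young KO, 4.62 in old control and 4.68 in old KO. The defining marker Cd3e was dim, at 3.17 to 3.62 in all 16 arrays. Natural killer and cytotoxic cell markers differed by a median of -0.0081 (5 of 10 higher), with sums of 294.6 to 309.8 in old KO and 293.8 to 321.4 in old control, and Ncr1 lay between 3.19 and 4.27. B and plasma cell markers gave sums of 101.4 to 128.6 and 99.9 to 129.3. Of 6 listed fat cell markers 3 were measured. They were lower in young KO than in young control in 3 of 3 (median -1.25). Of these, 2 of 3 had a limma unadjusted p under 0.05 (1.7% of all genes in either direction). They were higher in old KO than in young KO in 3 of 3 (median 0.99), 2 of 3 at that level (1.34% of all genes). Against old control they were higher in 3 of 3 (median 0.37), 0 of 3 at that level. In these comparisons 0 of 3 were called. Their sums were 589.9, 533.3, 158.2 and 574.0 in old KO replicates 1 to 4, and ran from 140.8 to 735.5 in old control. In young muscle the sums ran from 246.6 to 678.2 in control and from 107.6 to 210.5 in KO. The members were high in old KO replicates 1 and 3. Endothelial markers were above all 12 other arrays in 7 of 10 genes in old KO replicate 1, with sums of 1487 to 2761 in old KO and 1673 to 2245 in old control, and in 0 of 10 in replicate 3. The part of endothelial cells in the values of replicate 1, of T cells in those of replicate 3, and of fat cells was not tested.

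**Figure D5:**
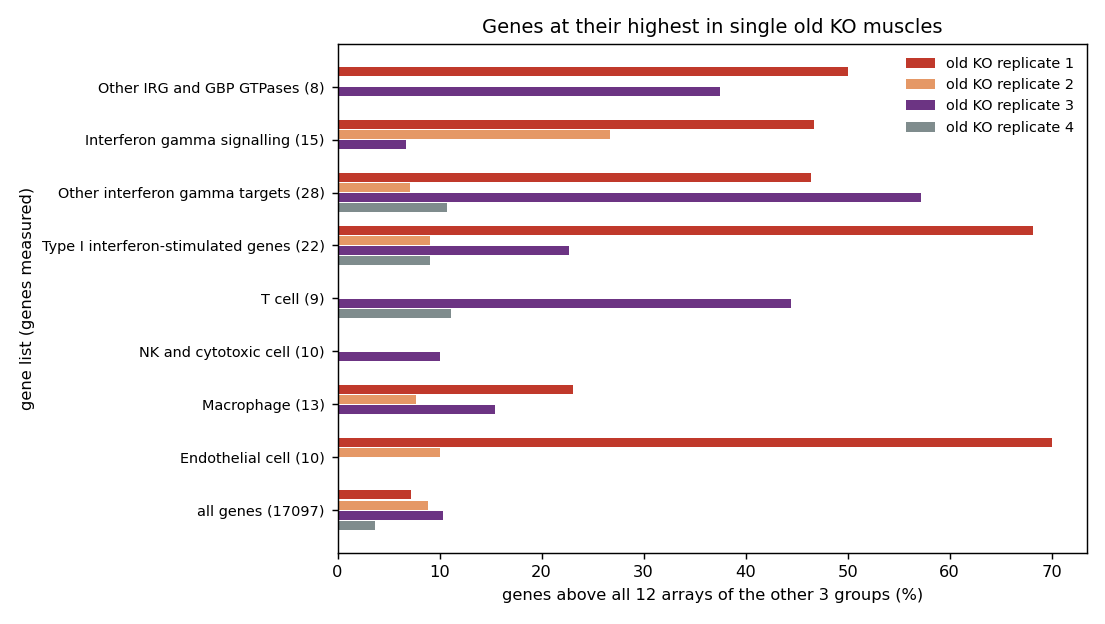
Share of genes (x axis, percent) that lay above all 12 arrays of the other groups, for each gene list (y axis, number measured in brackets) and each old KO array (bar colour); the lowest set of bars gives the share over all 17097 genes. Replicates 1 and 3 both exceed their share over all genes for the other GTPases, the interferon gamma targets, the type I genes and the macrophage markers. Replicate 1 also does so for endothelial markers, replicate 3 for T cell markers, and replicates 1 and 2 for interferon gamma signalling. Replicate 2 does so narrowly for type I genes and endothelial markers, and replicate 4 for interferon gamma targets, type I genes and T cell markers. In every group the mean of the T cell list is highest in replicate 3. The means of interferon gamma signalling and of endothelial markers are higher in replicates 1 and 2 than in 3 and 4 of every group.

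The genes outside the members whose signal was most like their mean over the 16 arrays were Psmb9 (Pearson r = 0.95), the ADP-ribosyltransferase Parp14 (0.94), Gbp7 (0.90), the class I gene H2-D1 (0.90), Rnase2a (0.89), H2-K1 (0.88), Ifit3 (0.87), Slfn1 (0.86), Gm9706 (0.85) and the class I gene H2-T23 (0.85). The 16 arrays include old KO replicates 1 and 3, which carry much of the members' own spread. Over the other 14 arrays r was 0.87 for Psmb9, 0.74 for H2-T23, 0.72 for H2-D1, 0.50 for Gbp7, 0.47 for Parp14 and -0.22 for Slfn1. Of the 10 genes most alike after group means were removed, 4 were among those named: Parp14, Gbp7, Psmb9 and H2-D1.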

How the data were processed

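Each array was deposited as log2 signal by probe set, which the authors made with RMA and the affy package, per the submitters' processing notes, which give no version. RMA subtracts background, equalises the distributions of the arrays and fits a probe model, so that dim genes are compressed towards background. All 16 columns were used. Of 45037 probe sets, beside 104 controls, 28898 carried 1 gene symbol in the platform's annotation. The brightest represented a gene, and 28689 of them matched a RefSeq gene ID (GRCm38.p6) with the same symbol. Array medians lay between 4.58 and 4.65. The number of arrays limits the precision.

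All 16 arrays were fitted with limma 3.58.1 in R 4.3.3 (1 mean per group, trend, two-sided, Benjamini-Hochberg over all 17097 genes). The procedure was tested on simulated data in which the noise of the arrays was independent. It was thus not tested under the replicate number effect of the real arrays. The replicate number of the labels pairs arrays (24 pairs, median r 0.677), and a fit with it as a block was an alternative. Figures used matplotlib 3.10.9. Members and lists were chosen with earlier results of these data known. Named genes were those of the family list, up to 5 per other list and 3 per cell type list with the smallest p for age in KO mice, defining markers, the top of the pathway, and the genes most like the members.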

Additional observations from a re-analysis of the deposited data

Results flagged for a closer look

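In 32 series of 4 arrays (each member and their mean, in each group), 3 arrays stood apart by their distance to the nearest array, where chance alone sets apart about 1 group in 20. Gbp3 stood at 4.13 in old KO replicate 1, with the other old KO arrays at 2.81 to 3.01. Igtp stood at 6.02 in young KO replicate 2, a small step above the 5.88 to 5.90 of the other young KO arrays. Gbp2 stood at 4.23 in young KO replicate 3, with the others at 4.50 to 4.54.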

How the results depend on the processing

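Both counts of members called (genotype in young mice, age in control mice) and all 5 counts over the other interferon genes stayed at 0 with the replicate block, with family and the replicate block, and under every other alternative run, each single array left out included. Each number occurs once per group, so the replicate block cannot move a difference of group means, which for the 7 members was 1.18 (old against young KO) and 1.12 (old KO against old control). With family and the replicate block they were 0.55 and 0.94. Leaving out single arrays moved these between 0.89 and 1.49 and between 0.84 and 1.43. Leaving out old KO replicates 1 and 3 together, chosen after seeing the data, gave 0.33 and 0.27. With family and the replicate block the mean for age in control mice was -0.33 in place of 0.01. Only the family labelled Other held mice of both ages, so the age differences of that fit depend on its few arrays. No member was called in the tested comparisons, and small differences changed sign. With family and the replicate block the young KO difference was 0.35 for Igtp, 0.10 for Irgm1 and 0.17 for Irgm2, and the age difference in control mice was -0.11 for Irgm2. Leaving out single arrays gave, for genotype in young mice, -0.29 to 0.42 for Iigp1, -0.18 to 0.12 for Igtp, -0.0904 to 0.058 for Irgm1 and -0.12 to 0.033 for Irgm2. For age in control mice it gave -0.45 to 0.14 for Iigp1, -0.26 to 0.013 for Tgtp1 and -0.11 to 0.037 for Irgm1. The cause of these shifts was not tested.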

Other observations

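Outside old KO muscle, young KO replicate 4 held the highest Iigp1 (6.28) and Gbp7 (7.74) of the 12 arrays, while its Igtp (5.88) and Gbp2 (4.54) lay within the range of the others and its Irgm1 (4.27) was the lowest. Over these 12 arrays, after group means were removed, Pearson r was 0.61 for Iigp1 with Tgtp1, 0.58 for Igtp with Irgm2 and -0.45 for Gbp2 with Gbp3. The 12 arrays share the replicate number effect, and Gbp3 is dim there. Cxcl10, a chemokine that interferon gamma induces, stood at 4.09 and 4.15 in old KO replicates 3 and 4 and at 3.37 and 3.41 in replicates 1 and 2, with 3.25 to 3.46 in the 12 other arrays, an order unlike that of the GTPases. It was chosen after its values were seen.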
